A study of Homo sapiens with 2 samples.

Results

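The TCF/LEF family consists of 4 human genes, TCF7, LEF1, TCF7L1 and TCF7L2, and their surroundings were examined in a list of peaks from CAL-27 sphere cells, where DNA was pulled down with an antibody against TCF4. The 4 genes were taken by name, and a peak was counted when its summit, its highest point, lay inside the RefSeq record of a gene on build hg38, within 1 kb of an end of the record, or within 100 kb of it. This gave 21 summits out of 26642 in the list, and 4 genes out of 20033 protein-coding records. TCF/LEF proteins bind DNA through a high mobility group box. In the absence of Wnt signalling they hold their targets silent together with Groucho/TLE corepressors. When Wnt signalling stabilises beta-catenin, it enters the nucleus, docks on the amino-terminal end of these proteins and switches the same targets on. Wnt signalling through TCF/LEF factors is widely studied for the self-renewal of epithelial stem cells, and TCF7L2 is also called TCF4.

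CAL-27 cells, an established human line, derive from squamous cell carcinoma of the tongue and were grown here as spheres. The series holds DNA recovered with the TCF4 antibody, in 1 library, and, as the control, DNA recovered with IgG, in 1 library. No genotype change, drug or time course is given in the labels. The IgG library was not analysed here, no value has a replicate check, and peaks that would also appear with IgG could not be separated from the rest. The name TCF4 is shared by TCF7L2 and by an E protein gene, and the labels do not say which of the proteins the antibody recognises. Fold enrichment, the fragments at a summit over the local background, is the authors' own value for each peak. The number of fragments at a summit was solved from the fold and the p of the peak. Intervals on it are 95% exact Poisson intervals and cover counting error only. Across the list the median fold was 5.13, with quartiles of 4.34 and 6.47, and the median summit held 10 fragments. A summit at a gene end, meaning within 1 kb of it, was present at 9 of 12 squamous keratinocyte marker genes, 1 of 6 fibroblast markers, 1 of 6 lymphocyte markers and 41.2% of all protein-coding genes. A peak at a marker gene does not measure its expression.

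The promoter sequences that carry the result are shown first, from RefSeq on GRCh38.p14, each running 5′ to 3′ along its gene from 250 bases before to 50 bases after a listed start site. In the next 3 sequences, capitals mark bases covered by a peak of the list. The TCF7L2 window (chr10:112949997-112950296, plus strand) is the only one of 7 listed windows of the 4 genes with a peak on it, which covers 192 bases, from base 40 to base 231. Of all 35116 promoter windows 23.9% carried a peak, and of all protein-coding genes with a listed start 37.5% had a peak on a window. The window of PPP2CA (chr5:134226024-134226323, minus strand) carries the strongest peak in any TCF/LEF neighbourhood. The window of HADH (chr4:107989639-107989938, plus strand) carries the lone peak within 100 kb of LEF1.
TCF7L2: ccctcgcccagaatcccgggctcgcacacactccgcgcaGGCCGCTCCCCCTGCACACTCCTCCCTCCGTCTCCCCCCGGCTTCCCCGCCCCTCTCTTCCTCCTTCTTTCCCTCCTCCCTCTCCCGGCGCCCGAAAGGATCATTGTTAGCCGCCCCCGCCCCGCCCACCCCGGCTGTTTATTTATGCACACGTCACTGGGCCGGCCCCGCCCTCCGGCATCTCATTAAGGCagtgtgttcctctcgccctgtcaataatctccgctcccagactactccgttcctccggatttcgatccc
PPP2CA: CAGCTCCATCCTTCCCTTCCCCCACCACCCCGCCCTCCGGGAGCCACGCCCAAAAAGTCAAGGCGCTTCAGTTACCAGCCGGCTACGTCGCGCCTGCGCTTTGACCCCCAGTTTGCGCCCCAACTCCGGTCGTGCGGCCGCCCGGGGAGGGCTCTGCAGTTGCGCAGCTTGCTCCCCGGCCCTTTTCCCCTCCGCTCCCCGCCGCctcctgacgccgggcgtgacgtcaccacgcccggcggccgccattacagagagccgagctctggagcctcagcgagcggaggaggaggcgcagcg
HADH: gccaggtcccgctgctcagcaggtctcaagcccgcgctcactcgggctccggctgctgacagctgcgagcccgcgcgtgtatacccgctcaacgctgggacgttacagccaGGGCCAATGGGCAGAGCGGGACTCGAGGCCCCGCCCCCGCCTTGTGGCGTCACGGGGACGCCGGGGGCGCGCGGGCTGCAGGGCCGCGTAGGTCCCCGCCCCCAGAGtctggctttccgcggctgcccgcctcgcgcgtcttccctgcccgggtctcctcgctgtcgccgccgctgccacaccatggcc

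The first listed start windows of the other 3 genes carried no peak. They are TCF7L1 (chr2:85133142-85133441, plus strand), TCF7 (chr5:134115363-134115662, plus strand) and LEF1 (chr4:108166252-108166551, minus strand). Here capitals mark E-box letters, CANNTG, the site class of E proteins, or TCF/LEF words, which were CTTTGNN with A or T at each N, on either strand. No TCF/LEF word was found in them. TCF7 holds the E-box CAGGTG, LEF1 holds CAACTG, and TCF7L1 has neither kind of match.
TCF7L1: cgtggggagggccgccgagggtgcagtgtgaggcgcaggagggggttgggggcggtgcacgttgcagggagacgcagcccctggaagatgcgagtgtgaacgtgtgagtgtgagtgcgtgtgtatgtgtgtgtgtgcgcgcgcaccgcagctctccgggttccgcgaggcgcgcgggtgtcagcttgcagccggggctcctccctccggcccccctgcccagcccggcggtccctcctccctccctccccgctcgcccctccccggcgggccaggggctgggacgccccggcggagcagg
TCF7: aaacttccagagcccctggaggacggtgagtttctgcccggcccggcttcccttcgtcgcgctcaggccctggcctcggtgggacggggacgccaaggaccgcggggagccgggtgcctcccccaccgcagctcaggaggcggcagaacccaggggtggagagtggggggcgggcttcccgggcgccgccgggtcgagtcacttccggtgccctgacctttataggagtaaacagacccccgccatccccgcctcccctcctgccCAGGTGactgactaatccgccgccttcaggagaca
LEF1: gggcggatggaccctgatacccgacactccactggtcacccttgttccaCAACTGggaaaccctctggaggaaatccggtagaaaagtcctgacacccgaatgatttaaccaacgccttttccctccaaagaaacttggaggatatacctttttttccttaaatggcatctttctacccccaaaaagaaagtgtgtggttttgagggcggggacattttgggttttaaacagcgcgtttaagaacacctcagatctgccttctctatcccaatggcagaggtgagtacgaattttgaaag

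The TCF/LEF words lay in internal start windows instead. These were the downstream window of TCF7 (chr5:134123368-134123667, plus strand) and the middle of the 3 windows of TCF7L2 (chr10:113126383-113126682, plus strand), with the word in capitals. Neither carried a peak, and the remaining window of TCF7L2 (chr10:113129021-113129320) carried neither a word nor a peak. From an internal start, TCF7 is known to make shortened proteins that lack the beta-catenin docking end.
TCF7 internal start: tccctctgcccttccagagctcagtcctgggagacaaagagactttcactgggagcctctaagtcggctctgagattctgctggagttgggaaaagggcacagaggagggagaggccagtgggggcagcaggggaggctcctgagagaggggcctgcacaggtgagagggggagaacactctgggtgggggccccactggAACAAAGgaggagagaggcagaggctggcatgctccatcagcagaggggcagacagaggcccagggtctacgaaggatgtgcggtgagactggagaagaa
TCF7L2 internal start: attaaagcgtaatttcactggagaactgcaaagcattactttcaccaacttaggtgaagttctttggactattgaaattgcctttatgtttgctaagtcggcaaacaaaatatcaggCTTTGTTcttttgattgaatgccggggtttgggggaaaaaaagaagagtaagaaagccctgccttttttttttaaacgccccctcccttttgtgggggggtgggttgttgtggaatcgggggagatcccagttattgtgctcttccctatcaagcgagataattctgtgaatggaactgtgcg

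**Figure D1:**
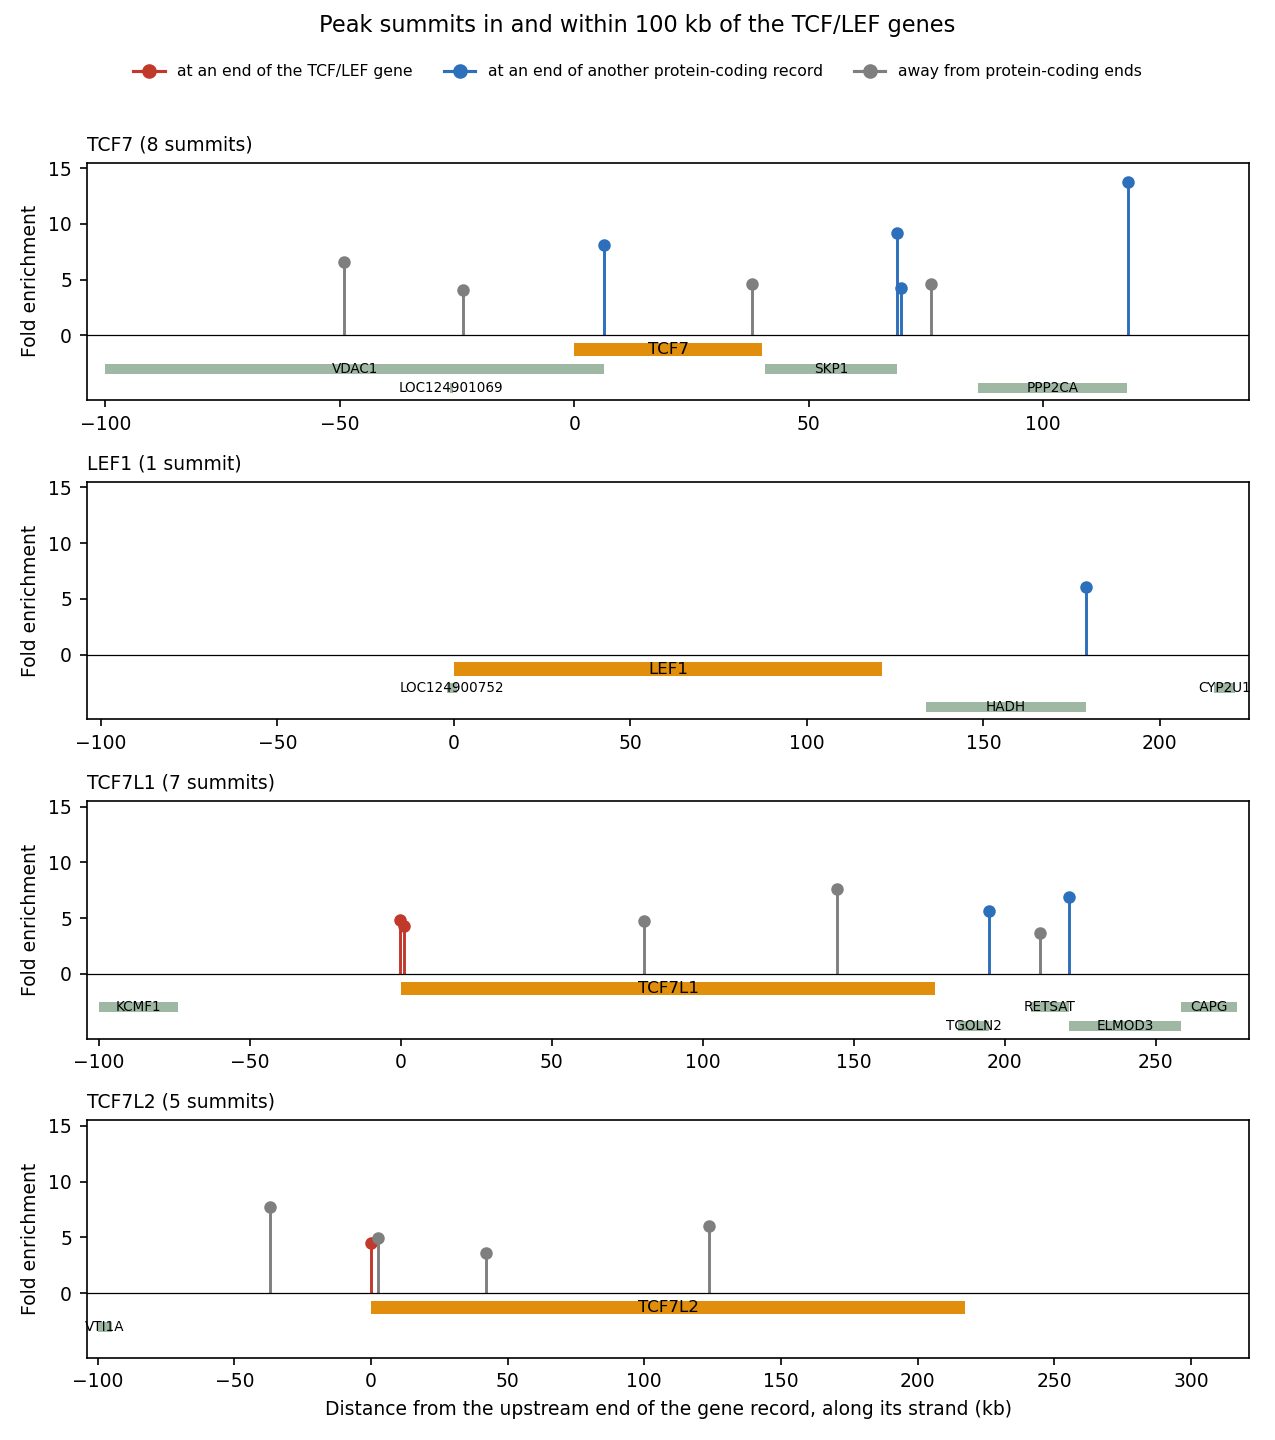
Each panel shows 1 gene of the family on its strand. The horizontal axis is the distance from the upstream end of the gene record in kb, the vertical axis is the authors' fold enrichment, each stem is a peak summit, orange bars are the TCF/LEF records and green bars other protein-coding records, clipped at 100 kb. The stems at the ends of TCF7L1 and TCF7L2 stand below 5, while the tallest stem, 13.7, stands at PPP2CA near TCF7.

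TCF7L2, the beta-catenin partner best studied in the intestinal epithelium, had 3 summits inside its record, 1 at its start and 1 further upstream. Its record spans 217 kb on chromosome 10, from 112950247 to 113167678. The peak at the start (chr10:112950036-112950227) had its summit 24 bp before the first listed start site. Its fold was 4.46 on 7 fragments (interval 2.81 to 14.4), with a −log10 q of 2.68. Only 12.7% of the protein-coding genes with a summit at an end had a lower fold there. Inside the gene, a summit 2.50 kb downstream of the start had a fold of 4.97 on 8 fragments. It lay 402 bp from the end of LOC124902502, a lncRNA record near the start. The summit 41.9 kb downstream had a fold of 3.56 on 6 fragments and the summit 123.6 kb downstream had 6.07 on 9 fragments. The strongest peak of the locus lay outside the gene, 37.0 kb upstream inside the lncRNA LINC02935, with a fold of 7.73 on 12 fragments (6.20 to 21.0). The fragment intervals of all 5 summits overlap, so their order by fragments is not resolved. These intervals leave out the local background and give no spread for the folds. The internal start sites of TCF7L2 had no summit close by, the nearest being the one with a fold of 6.07, 52779 bp upstream of them.

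TCF7L1, the family member known mainly as a repressor in stem cells and skin progenitors, had a pair of summits flanking its start. Its record spans 177 kb on chromosome 2, from 85133392 to 85310387. A peak upstream (chr2:85132915-85133058) had its summit 379 bp before the start, with a fold of 4.87 on 9 fragments (4.12 to 17.1). A peak downstream (chr2:85134190-85134302) had its summit 906 bp after the start, with a fold of 4.34 on 8 fragments (3.45 to 15.8). Both stood beside the promoter window rather than on it. The upstream peak stopped 83 bases short of the window shown above. Their −log10 q values were 3.54 and 2.67. Further inside the gene, a summit 80.5 kb downstream had a fold of 4.77 on 7 fragments, 279 bp from an end of the lncRNA LOC102724579. The strongest peak of the gene (chr2:85277769-85278004) lay 144.5 kb downstream and 32.5 kb from the far end. It had a fold of 7.63 on 16 fragments (9.15 to 26.0). Its −log10 q was 9.71. It lay away from any protein-coding gene end, and 85.0% of all peaks in the list had a lower fold.

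TCF7, best known as the T cell factor TCF-1, had 2 summits inside its record and none within 1 kb of an end. The record spans 40.0 kb on chromosome 5, from 134108218 to 134148210. The stronger of the 2 peaks (chr5:134114470-134114670) had a fold of 8.06 on 23 fragments (14.6 to 34.5) and a −log10 q of 13.4. This peak is shared with VDAC1, a channel of the outer mitochondrial membrane whose minus-strand record overlaps the upstream part of the TCF7 record. Its summit lay 33 bp from the upstream end of the VDAC1 record and 1040 bp before the first listed start site of TCF7, just outside the window of 1 kb. That record end is not a listed start of VDAC1, and no listed VDAC1 start had a summit within 1 kb. The nearest listed protein-coding start to this summit was that of TCF7. At listed start sites, a window of 1 kb held a summit for 2 of the 4 genes, beside 44.5% of protein-coding genes with a listed start. TCF7 joined TCF7L1 and TCF7L2 with a window of 2 kb at listed start sites, giving 3 of 4 genes beside 46.6%. It also joined when any base of the peak was counted within 1 kb of a listed start, beside 44.8%. Both of these settings were chosen after seeing the data. Any base of the peak within 1 kb of a record end left the count at 2. The other peak (chr5:134145969-134146134) lay 2166 bp from the high-coordinate end, which is the downstream end of TCF7. Its fold was 4.61 on 16 fragments (9.15 to 26.0), over a local background of 2.69 fragments, the highest background among the 21 summits. The list median of the local background was 0.962 fragments.

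LEF1, a factor of hair follicle and lymphoid development, had no summit inside its record or at its ends. The record spans 121 kb on chromosome 4, from 108047548 to 108168932. The sole summit within 100 kb (chr4:107989750-107989856) lay 57.7 kb from the downstream end of LEF1 and 61 bp from the start of HADH, an enzyme of fatty acid oxidation. It had a fold of 6.10 on 8 fragments (3.45 to 15.8). Its local background sat at the floor of the list, 0.475 fragments, so that a small number of fragments sufficed for this fold. No summit lay between 100 and 250 kb from LEF1. Of all protein-coding records, 84.9% had a summit inside or within 100 kb. Among records of the length of LEF1 (0.5 to 2 times), 14.3% had none and 29.5% had at most 1.

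The rule on distance left a few peaks just outside. A summit at the start of CAPG, an actin capping protein, lay 100.015 kb from TCF7L1, with a fold of 4.58 on 8 fragments. A summit 101.5 kb from TCF7 had a fold of 4.49 on 8 fragments. The farthest summit counted lay 78.1 kb from TCF7, at PPP2CA. At the limit of 1 kb, the counted summit 906 bp from the TCF7L1 start was the nearest inside, and the TCF7 summit 2166 bp from an end the nearest outside.

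**Figure D2:**
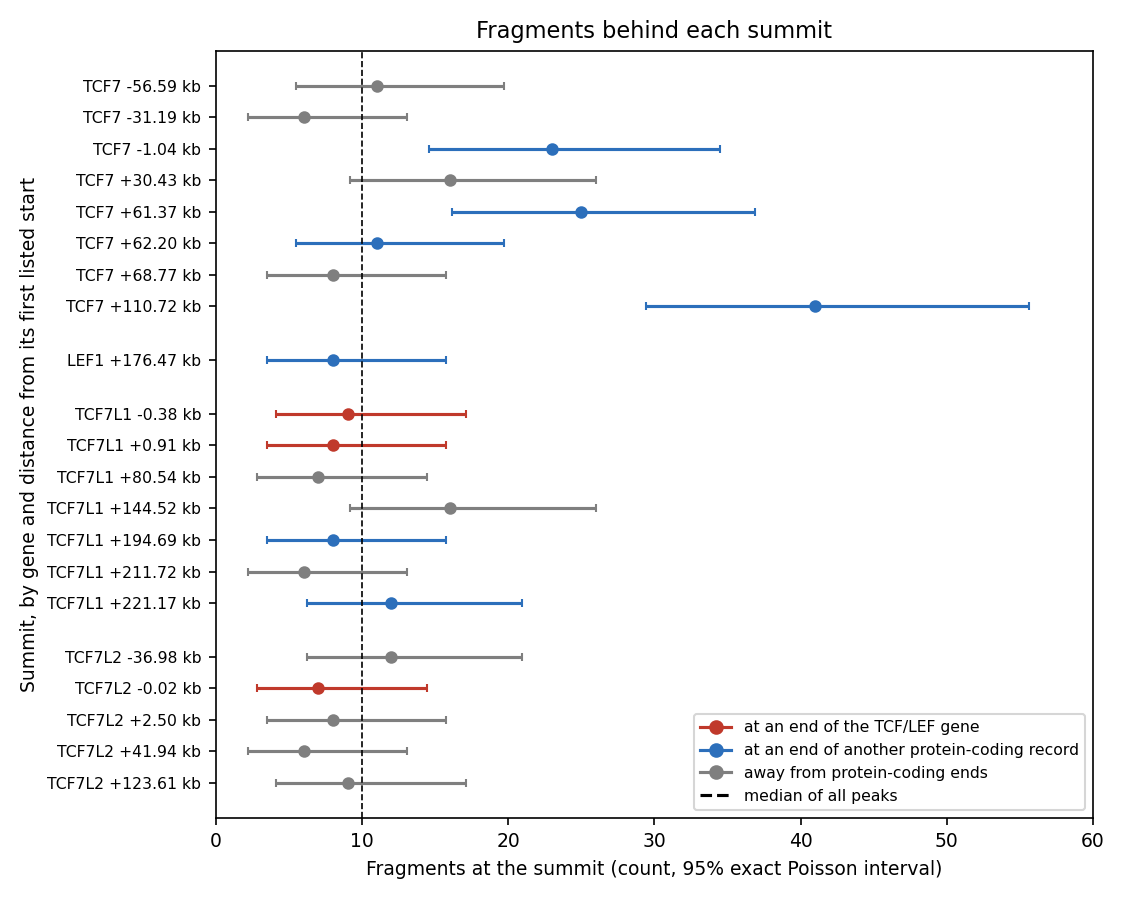
Each point is a summit in or within 100 kb of a TCF/LEF gene. The horizontal axis is the number of fragments at the summit with its 95% exact Poisson interval, rows are ordered by gene and by distance in kb from its first listed start, and the dashed line is the list median of 10. The red points, at the ends of TCF7L1 and TCF7L2, hold 7 to 9 fragments, and the PPP2CA point holds 41.

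Peaks within 1 kb of the record ends of the TCF/LEF genes were weak for this list. This does not cover the stronger TCF7 peak, 1040 bp before the first listed start of TCF7. That start lies 7.39 kb inside the TCF7 record. The TCF7 peak had a fold of 8.06 on 23 fragments and a −log10 q of 13.4. Summits within 1 kb of an end were found at 2 of the 4 genes, beside 41.2% of all protein-coding genes. These 3 summits ranged from 4.34 to 4.87 in fold and from 7 to 9 in fragments. The 8584 peaks at protein-coding ends across the list had a median fold of 5.81 and a median of 12 fragments. Of the genes with a peak at an end, 21.7% had a lower fold than TCF7L1. None of the 3 reached a −log10 q of 5, which 57.3% of all peaks at protein-coding ends did. At that threshold 0 of the 4 genes kept a summit at an end, beside 27.1% of all protein-coding genes. The Poisson intervals of all 3 summits include 12 fragments. These intervals are on fragments and give no spread for the folds, and the distance to the medians was not tested.

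**Figure D3:**
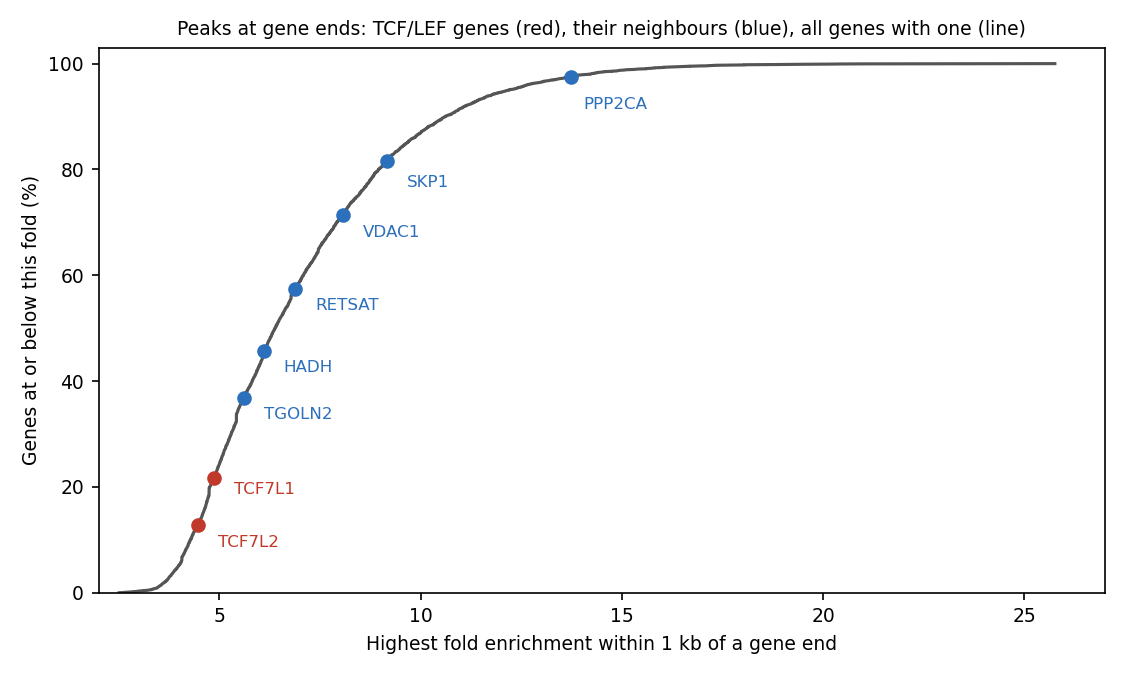
The line gives the percentage of protein-coding genes with a peak within 1 kb of an end whose highest fold is at or below the value on the horizontal axis. TCF7L1 and TCF7L2, in red, stand above 21.7% and 12.7% of these genes. The 6 blue points, the highest peaks at neighbouring genes inside the TCF/LEF neighbourhoods, lie to their right. KCMF1 (5.47) and CAPG (4.58), whose peaks lie beyond 100 kb, are not drawn, and CAPG would lie left of TCF7L1. The smaller SKP1 peak, with a fold of 4.25, is not drawn either. The point named RETSAT is shared by ELMOD3.

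The insides of 3 of the genes held more summits than most genes of like length. Of all protein-coding records, 38.8% held a summit. Longer genes hold more, so each was set beside protein-coding records of 0.5 to 2 times its length. TCF7, with 2, exceeded 84.1% of 6827 such records, of which 43.7% held any summit. TCF7L1, with 3, exceeded 82.6% of 3180, of which 58.6% held any. TCF7L2, also with 3, exceeded 80.2% of 2622, of which 60.1% held any. LEF1, with 0, was like 45.0% of its 4258 records, and 55% of them held at least 1. Per 100 kb of record the counts were 5.0 in TCF7, 1.69 in TCF7L1, 1.38 in TCF7L2 and 0 in LEF1. The TCF7 count includes the peak at the VDAC1 end. Among peaks of at least 10 fragments, TCF7 kept 2, TCF7L1 kept 1 and TCF7L2 kept 0. With these counts TCF7 exceeded 91.0% of its like-length records and TCF7L1 exceeded 71.2%. By this measure TCF7L2 no longer stood above other genes, since 28.7% of its like-length records held more and the other 71.3% also held 0. With a −log10 q of at least 5, TCF7, TCF7L1 and TCF7L2 each kept 1 and exceeded 77.2%, 70.2% and 69.5% of like-length records.

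**Figure D4:**
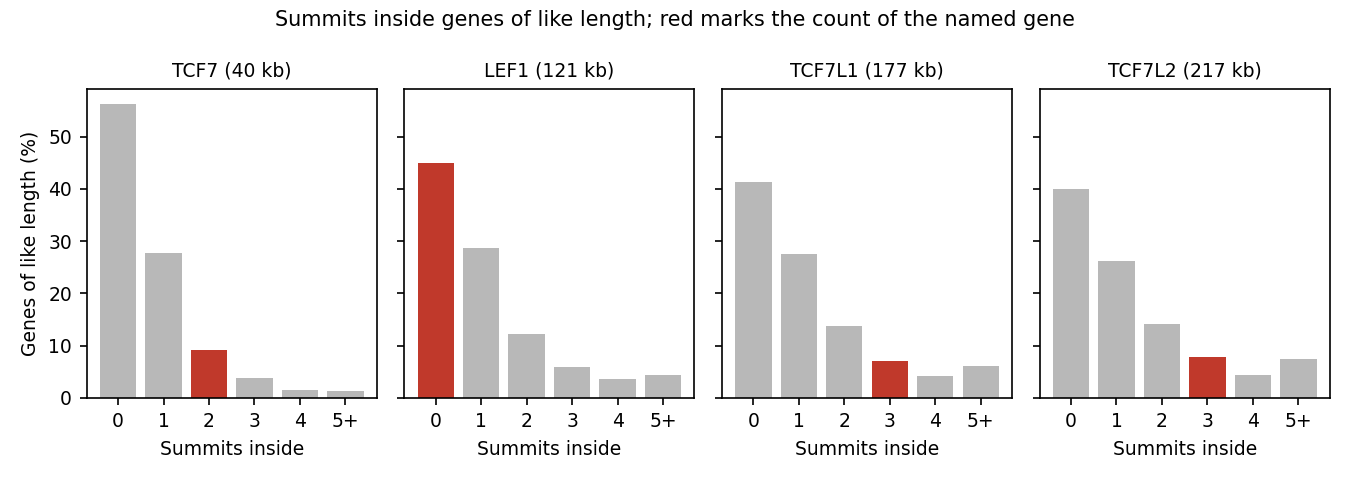
Bars give the percentage of protein-coding records of 0.5 to 2 times the length of the named gene that hold 0, 1, 2, 3, 4 or at least 5 summits. The red bar is the count of the named gene itself, 2 for TCF7, 0 for LEF1 and 3 each for TCF7L1 and TCF7L2.

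Of the 9 neighbourhood summits with a −log10 q of at least 5, 5 stood at an end of another protein-coding record. The 5 include the peak inside TCF7 at the record end of VDAC1. In the whole list, 4922 of 10977 peaks at that threshold stood at protein-coding ends. Of the 21 summits, 3 lay at an end of a TCF/LEF gene, 7 at an end of another protein-coding record and 11 away from such ends. Those 10 summits at protein-coding ends are 47.6% of the 21, beside 32.2% of all summits in the list. The 21 were taken for lying in or near protein-coding records, and the whole list was not. A higher share at such ends is therefore favoured by the rule. The 7 at other genes had a median fold of 6.88 and a median of 12 fragments, and 5 of them reached a −log10 q of 5. The 11 away from ends had a median fold of 4.77 and a median of 8 fragments, and 4 of them reached it. Across the list, 57.3% of peaks at protein-coding ends and 33.5% of those away from them reached it. Their median folds were 5.81 and 4.87, so the whole list shows a contrast in the same direction. In all, 9 of the 21 did (42.9%), beside 41.2% of the whole list. The median fold of the 21 was 4.97, beside 5.13 in the whole list.

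The TCF7 neighbourhood held the highest of these values. PPP2CA, the catalytic subunit of protein phosphatase 2A, had a peak (chr5:134226119-134226751) with a fold of 13.7 on 41 fragments (29.4 to 55.6). Its summit lay 258 bp from the listed start of PPP2CA and 79 bp from its divergent lncRNA PPP2CA-DT. That fragment interval does not overlap those of the 3 summits at TCF7L1 and TCF7L2 ends. The local background was 2.06 fragments at PPP2CA and 0.795 to 1.07 at those 3, and the intervals leave it out. SKP1, a core subunit of SCF ubiquitin ligases, had a peak (chr5:134176580-134177246) with a fold of 9.17 on 25 fragments (16.2 to 36.9), 31 bp from its start. A smaller peak 858 bp upstream of SKP1 had a fold of 4.25 on 11 fragments. Inside VDAC1 lay 2 more summits, with folds of 6.58 on 11 fragments and 4.05 on 6, and another, 7433 bp from the SKP1 start, had 4.63 on 8. Near TCF7L1, the start of TGOLN2, a trans-Golgi membrane protein, had a fold of 5.61 on 8 fragments. The divergent starts of RETSAT, a retinol saturase, and ELMOD3 shared a peak with a fold of 6.88 on 12 fragments. A summit inside RETSAT had a fold of 3.64 on 6 fragments.

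Of the 13 other protein-coding records that touch the neighbourhoods, 9 had a summit at an end (69.2%), beside 41.2% of all such genes. RETSAT and ELMOD3 count separately here although they share a peak, and the summits at KCMF1 and CAPG lie beyond 100 kb. The 4 without one were CYP2U1 and LOC124900752 near LEF1, LOC124901069 near TCF7 and VTI1A near TCF7L2. Local backgrounds, known only at the called summits, differed among the loci as well. Their medians were 1.83 fragments at TCF7, 0.475 at LEF1, 0.923 at TCF7L1 and 0.795 at TCF7L2. The LEF1 value comes from 1 summit, at HADH and 57.7 kb from LEF1, and does not describe LEF1 itself. The part of local background in the number of peaks called at each locus was not tested.

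The start windows of the 4 genes differed widely in base composition. GC content was 74.3% in the TCF7L1 window, 69.7% in the first TCF7 window, 65.7% in the first TCF7L2 window and 47.0% in the LEF1 window. CpG counts of these first windows ran from 31 in TCF7L1 through 25 in both TCF7 and TCF7L2 to 9 in LEF1. Over all 35116 promoter windows, the 8407 on a peak had a median GC content of 67.7% and 29 CpG, and the windows without a peak had 54.0% and 7 CpG. Among windows within 5 percentage points of the GC content of the LEF1 window, only 3.71% were on a peak. The same share was 49.0% for TCF7L1, 46.8% for TCF7 and 40.9% for TCF7L2. It was 1.29% for the internal TCF7L2 window that holds a TCF/LEF word and 30.8% for the internal TCF7 window that holds one. These 2 internal windows held 7 and 3 CpG, and the windows beside them were matched on GC content alone. The absence of a peak was therefore common for a window of the composition of LEF1, and neither outcome was rare for the first windows of the other 3 genes. The LEF1 window lies 2.63 kb inside the upstream end of its record, and the first TCF7 window 7.39 kb inside, so their composition does not describe those record ends.

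None of the motif matches in windows of the 4 genes lay in the window with a peak. A TCF/LEF word was present in 2 of the 7 windows, both without a peak, beside 13.8% of all windows. Across all windows, 6.19% of those on a peak held such a word, against 16.1% of those without a peak. Matches were searched over the whole window, and any base of a peak put a window on a peak. These shares therefore do not describe the sequence under the peaks, which was not searched away from start windows. An E-box CANNTG was present in 4 of the 7, none of them on a peak, beside 68.7% of all windows. It was present in 57.2% of all windows on a peak, against 72.3% of those without. Windows on a peak were richer in GC, as given above, and the part of composition in these shares was not tested. The PPP2CA window holds the E-box CAGTTG inside the peak, and the HADH window holds CAGCTG outside it.

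The genes that work with TCF/LEF proteins in the nucleus were mixed. Of 33 listed partners, 19 had a summit at an end (57.6%), beside 41.2% of all protein-coding genes. The partner list was chosen with earlier results of these data known, so the higher share only describes the listed genes. The median fold of the 19 partners there was 8.59, beside 6.38 over all protein-coding genes with a summit at an end. The difference from the TCF/LEF genes was not tested, and the fold of TLE5, 3.56, a value picked out after it was seen, was below those of TCF7L1 and TCF7L2. When a −log10 q of 5 or more was required, 16 partners and 0 of the TCF/LEF genes had one, beside 27.1% of all protein-coding genes. CTNNBIP1, an inhibitor that keeps beta-catenin off TCF factors, had a fold of 15.2 on 48 fragments. SENP2, a SUMO protease, had 15.1 on 42 fragments. TLE1, a Groucho corepressor that binds TCF/LEF proteins, had 13.5 on 34 fragments. EP300, an acetyltransferase coactivator, had 11.4 on 26 fragments. The chromatin remodellers SMARCA4 and CHD8 had 10.4 on 31 fragments and 10.3 on 20. BCL9 and BCL9L, which link beta-catenin to its coactivators, had no summit at an end, with 1 and 2 inside. The corepressors CTBP1 and CTBP2 had none at an end, with 1 and 3 inside. CTNNB1, which encodes beta-catenin and was picked out after its values were seen, had no summit inside, at an end or within 100 kb.

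**Figure D5:**
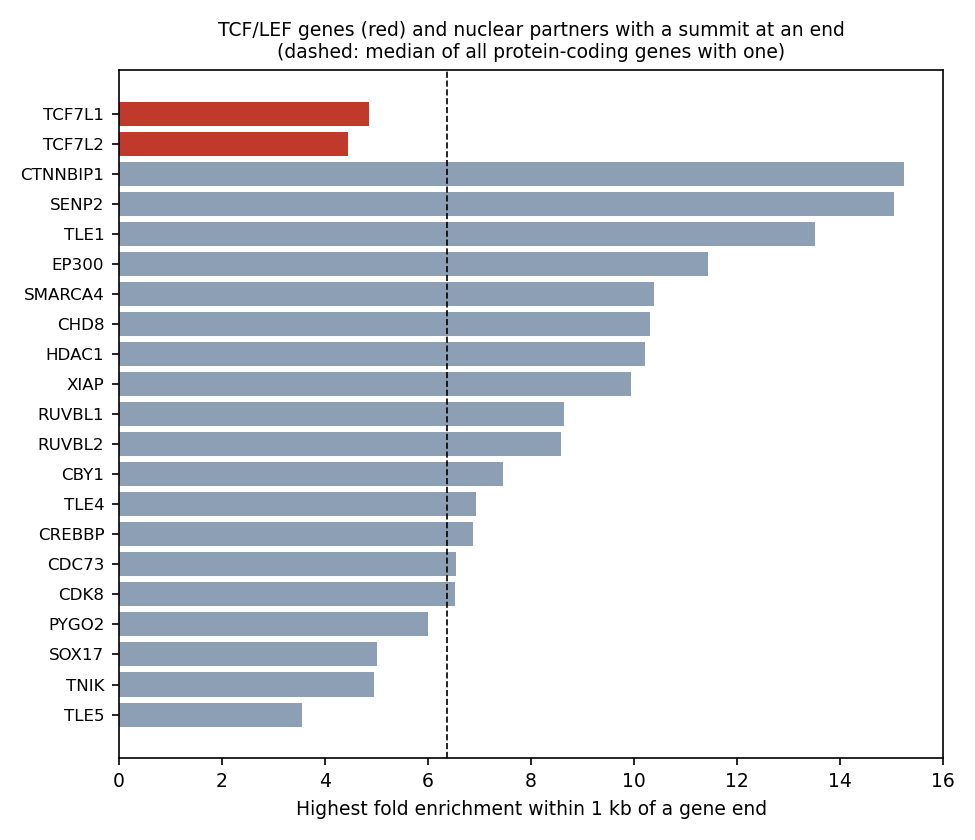
Bars give the highest fold of a peak within 1 kb of an end, for TCF7L1 and TCF7L2 in red and for the 19 nuclear partners with one in grey-blue. The dashed line is the median over all protein-coding genes with one, 6.38. The red bars, 4.87 and 4.46, stop short of it, and 15 of the partner bars pass it.

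No summit lay in the record of TCF4, the E protein gene on chromosome 18, nor at its ends or within 100 kb. AXIN2, a common target of beta-catenin and TCF/LEF, had none inside or at an end and 1 within 100 kb.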

How the data were processed

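Genomic DNA of CAL-27 spheres pulled down with the TCF4 antibody was measured in 1 library. The submitters' processing notes name Bowtie2 2.3.5.1, SAMtools, MACS2 2.2.7.1 and hg38. Caller settings and the use of the IgG library are not given in the sources used here. The deposited peak list belongs to this library and is not pooled over replicates. The fold enrichment of each peak is a ratio deposited by the authors. Each peak also carries the p-value and the q-value of its summit, on the −log10 scale, as deposited. The score, as the authors deposited it, equals 10 times that q scale with decimals cut off.

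Fragments at a summit and the local background were solved from fold = (fragments + 1) / (background + 1) and the Poisson tail beyond the fragments, as in MACS2. All 26642 peaks were solved with a largest error of 4.8e-05 in −log10 p, and 500 of 500 simulated peaks were recovered. In 200 of 200 records with planted summits, at least the planted number was counted. The total number of fragments is unknown. Gene records (59675, 20033 protein-coding) and 35116 start windows came from RefSeq tables for GRCh38.p14. Start sites were listed for 15842 protein-coding genes, none on chromosome 8. For VDAC1 the record end was used. Exons, introns and UTRs were not classed, since the tables hold none.

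No test was run, since there is 1 library. Values are set beside the same values over all protein-coding genes, windows or peaks. Named genes were the 4 family members, genes nearest to the summits, TCF4, AXIN2 and, of the partner list, the 6 with the highest fold at an end and the first 4 in alphabetical order without one. TLE5 and CTNNB1 were added after their values were seen. The members and lists were chosen with earlier results of these data known. Alternatives were stricter peak thresholds, other windows, any overlap of the peak and start sites alone. Computation used Matplotlib 3.10.9, pandas 2.3.3, SciPy 1.17.1, NumPy 2.4.6 and Python 3.11.15.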

Additional observations from a re-analysis of the deposited data

How the results depend on the processing

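With a −log10 q of at least 5, the genes with a summit at an end fell to 0, the summits inside to 3 and those outside within 100 kb to 6, and the median fold stood at 7.63. With at least 10 fragments at the summit the values were the same 4, namely 0, 3, 6 and 7.63. Both settings leave fewer peaks, so lower counts and a higher median fold follow from their construction. With a neighbourhood of 250 kb, 29 summits lay outside the genes, in place of 13. The other 19 of 28 alternative values stayed within 1.5 times the reported value, among them 2 genes with a summit at an end with windows of 500 bp and 2 kb and at listed start sites alone. The setting of listed start sites with 2 kb, or with any base of the peak, was chosen after seeing the data and gave 3 genes. The nuclear partners with a summit at an end numbered 15 to 20 in all settings run. No paired analysis was possible because each antibody has 1 library and no test was run. Most of these summits rest on 6 to 12 fragments, so single folds are imprecise.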

Other observations

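Between 100 and 250 kb from the TCF/LEF genes lay a further 16 summits, with a median of 10 fragments. The strongest lay upstream of TCF7L1 and away from genes, 174.9 kb from its start and 12.7 kb from the start of KCMF1, with a fold of 8.29 on 16 fragments. A neighbour of it, 24.7 kb from KCMF1, had 7.32 on 14 fragments. The KCMF1 start itself, a ubiquitin ligase gene, had a lower fold of 5.47 on 10 fragments, although that peak is 614 bp wide. The start of MAT2A, which makes the methyl donor S-adenosylmethionine, had a fold of 7.67 on 16 fragments, 214 bp from its listed start, in a peak 620 bp wide.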
